A study of Rattus norvegicus with 30 samples.

Results

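The semaphorins, plexins and neuropilins were followed by RNA-seq in rat lung during severe acute pancreatitis (SAP) and its associated acute lung injury (ALI). Members were taken by name: protein-coding genes whose symbol starts with Sema or with Plxna to Plxnd followed by a digit, together with Nrp1 and Nrp2. This gave 31 of 22914 genes, of which 20 were semaphorins, 9 were plexins and 2 were neuropilins. The study compared 5 treatments at 2 times, with 3 male Sprague Dawley rats of 8 weeks in each of 10 groups. In the Sham groups the pancreas was only turned slightly at surgery, and the Con groups had the biliopancreatic duct filled with sterile saline. In the SAP groups that duct received 5.0% sodium taurocholate (0.1 mL per 100 g body weight). The DEX groups received taurocholate and intravenous dexamethasone, a synthetic glucocorticoid, at 10 mg/kg, and the Emo groups received taurocholate and intragastric emodin, a rhubarb anthraquinone, for which the sample descriptions give 10 mg/kg and the protocol gives 40 mg/kg. Rats without a drug received its vehicle, and all were fasted and anaesthetized. Lungs were taken at 6 or 24 hours after surgery, and since doses were given at 2 and 12 hours, rats of the 6-hour groups had received 1 dose.

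Semaphorins are guidance proteins, first known from growing nerves, that also steer blood vessels and leukocytes. Class 3 members are secreted, classes 4 to 6 span the membrane, and Sema7a is held at the cell surface by a lipid anchor. Plexins are their signalling receptors, and neuropilins are co-receptors that hold class 3 semaphorins to class A plexins and also bind vascular endothelial growth factor (VEGF). In lung, the family is known from vascular patterning, alveolar development and leukocyte recruitment.

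The libraries held between 16813949 and 34692306 reads counted on genes, and the members took a mean of 0.200% to 0.230% of them per group. The tissue label was checked by its markers: Sftpc, the surfactant protein of alveolar type 2 cells, lay between 12733 and 30191 FPKM, and Ager, an alveolar type 1 marker, between 368 and 1893 FPKM. Heart muscle transcripts varied between rats of nearly every group, with a summed level of 5 markers from 6.57 to 227 FPKM. In the study's mapping statistics, every one of the 18 libraries given taurocholate had a smaller uniquely mapped share than every one of the 12 Sham and Con libraries, so mapping share and taurocholate cannot be told apart. That share also differed without overlap between SAP-24h, DEX-24h and Emo-24h, between SAP-6h and DEX-6h, and between 6 and 24 hours in DEX and in Emo, and its part in the results was not tested. Fewer cells of a type and less RNA per cell cannot be told apart in whole lung.

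To show the sequence in front of the members on which the results turn, the 250 bases before the RefSeq start of 5 genes (assembly GRCr8, read 5′ to 3′ on the gene's strand) are given with every CpG pair in capitals. Sema7a (chr8:67244068-67244317, plus strand) and Sema6b (chr9:1047743-1047992, minus strand) were higher in SAP-24h, Nrp1 (chr19:73256307-73256556, plus strand) and Sema3c (chr4:18699628-18699877, minus strand) were lower, and Plxnd1 (chr4:150715188-150715437, minus strand) was lower with DEX.
Sema7a: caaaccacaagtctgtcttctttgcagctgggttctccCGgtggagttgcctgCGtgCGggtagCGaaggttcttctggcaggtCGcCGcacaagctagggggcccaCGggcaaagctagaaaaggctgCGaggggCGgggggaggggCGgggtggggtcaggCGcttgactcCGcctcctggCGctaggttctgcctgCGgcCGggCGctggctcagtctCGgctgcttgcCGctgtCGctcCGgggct
Sema6b: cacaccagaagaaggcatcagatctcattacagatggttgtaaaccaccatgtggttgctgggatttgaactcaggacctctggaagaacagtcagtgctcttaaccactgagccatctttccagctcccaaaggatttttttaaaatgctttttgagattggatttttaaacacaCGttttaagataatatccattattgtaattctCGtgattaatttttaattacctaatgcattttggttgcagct
Nrp1: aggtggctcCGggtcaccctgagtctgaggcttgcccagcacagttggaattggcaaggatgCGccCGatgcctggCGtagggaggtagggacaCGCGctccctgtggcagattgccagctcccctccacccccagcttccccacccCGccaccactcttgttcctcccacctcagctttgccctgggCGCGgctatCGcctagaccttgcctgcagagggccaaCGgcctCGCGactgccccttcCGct
Sema3c: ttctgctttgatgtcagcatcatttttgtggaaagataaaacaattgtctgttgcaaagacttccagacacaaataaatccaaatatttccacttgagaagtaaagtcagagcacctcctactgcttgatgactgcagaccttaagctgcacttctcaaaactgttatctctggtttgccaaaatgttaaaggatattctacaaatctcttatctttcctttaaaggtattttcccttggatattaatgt
Plxnd1: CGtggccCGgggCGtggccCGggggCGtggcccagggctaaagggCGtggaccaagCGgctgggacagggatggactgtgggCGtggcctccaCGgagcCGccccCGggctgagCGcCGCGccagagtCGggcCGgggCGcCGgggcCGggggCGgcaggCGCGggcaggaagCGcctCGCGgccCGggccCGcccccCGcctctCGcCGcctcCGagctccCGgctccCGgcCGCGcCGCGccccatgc

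These upstream sequences differed in their number of CpG pairs and their GC content. Plxnd1 held 37 CpG pairs at 83.2% GC, Sema7a held 20 at 67.6% GC and Nrp1 held 14 at 66.4% GC. Sema6b had 2 CpG pairs at 37.2% GC and Sema3c had 0 at 35.2% GC. Of the 31 members, 23 had a RefSeq promoter, with a median of 13 CpG pairs and 60% GC against 6 and 52% over 27457 promoters. On both strands, an AP-1 element spelled TGANTCA was found in 0 of 23 (6.36% of all promoters). The hypoxia response core ACGTG was found in 4 (Sema3e, Sema4b, Sema5b and Sema6b, against 16.9% of all promoters). A letter match is a description and not a shown binding site.

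Levels per length differed widely among the members. Over the 30 libraries the highest mean was that of Sema7a (84.1 FPKM), followed by the secreted semaphorin Sema3g (55.2 FPKM), the receptor Plxnb2 (38.2 FPKM), Sema4a (34.7 FPKM), Sema3b (27.7 FPKM), Sema3f (21.8 FPKM), Nrp1 (20.6 FPKM) and Sema3c (20.4 FPKM). The ranges over rats of these neighbours overlapped, so this order describes means only. Nrp2, the co-receptor preferred by Sema3f and Sema3g, had a mean of 11.2 FPKM, and Plxnd1, an endothelial receptor that binds Sema3e without a neuropilin, had 10.6 FPKM. At the low end were Sema5b (0.316 FPKM), Sema3d (0.256 FPKM), Plxna3 (0.230 FPKM) and Plxna4a (0.0527 FPKM). Of the low members described below, Sema3d had 14 to 95 reads per library and Sema5b 8 to 83. Plxnb3 had 0 to 5 reads per library and was the member left out by the filter on low counts, so 30 members were tested.

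A member was called a differentially expressed gene (DEG) where edgeR's quasi-likelihood test gave an adjusted p under 0.05 over all 15934 genes tested and the change was at least 2-fold. SAP-6h against Sham-6h asks for the early response to the duct infusion and its taurocholate together, since Sham rats had no infusion. Con rats had the duct filled with saline, and comparisons with Con are given further below. Of 30 members, 0 were called in this comparison, against 0.220% of all genes, while 8 had an unadjusted p under 0.05 and DESeq2 called 1, Sema7a (log2 fold change 1.65, adjusted p = 0.00840). Groups of 3 rats did not overlap in FPKM for 13 members, 4 higher and 9 lower in SAP-6h, compared with 15.3% of all genes. Nrp1 was at 23.7, 20.5 and 21.6 FPKM in Sham-6h and at 8.08, 15.5 and 12.3 FPKM in SAP-6h. Every SAP-6h rat lay below every Sham-6h rat, but the difference did not pass the edgeR test (log2 fold change -0.84, SE 0.25, adjusted p = 0.134). Of 14 receptor partners, Kdr, the main VEGF receptor of endothelium, was the 1 called, with a log2 fold change of -1.21 (SE 0.23, edgeR adjusted p = 0.0246). Cell type markers had 0 calls, but red blood cell sums did not overlap (193 to 911 FPKM in Sham-6h and 1840 to 2360 FPKM in SAP-6h). Sums were lower in every SAP-6h rat for smooth muscle and pericyte (188 to 231 against 244 to 297 FPKM) and mesothelial markers (21.9 to 39.3 against 42.0 to 61.15 FPKM). The part of these cells was not tested.

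At 24 hours, 6 of 30 members were called in SAP-24h compared with Sham-24h (20.0%, against 5.00% of all genes). Sema7a, Sema6b and Sema3f were up-regulated, and Sema3c, Sema3d and Nrp1 were down-regulated. The median log2 fold change was -0.02 over the members and -0.03 over all genes. Groups did not overlap for 12 members, 3 higher and 9 lower, against 29.4% of all genes. The heatmap of changes against Sham shows these calls beside those of the drug groups.

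**Figure D1:**
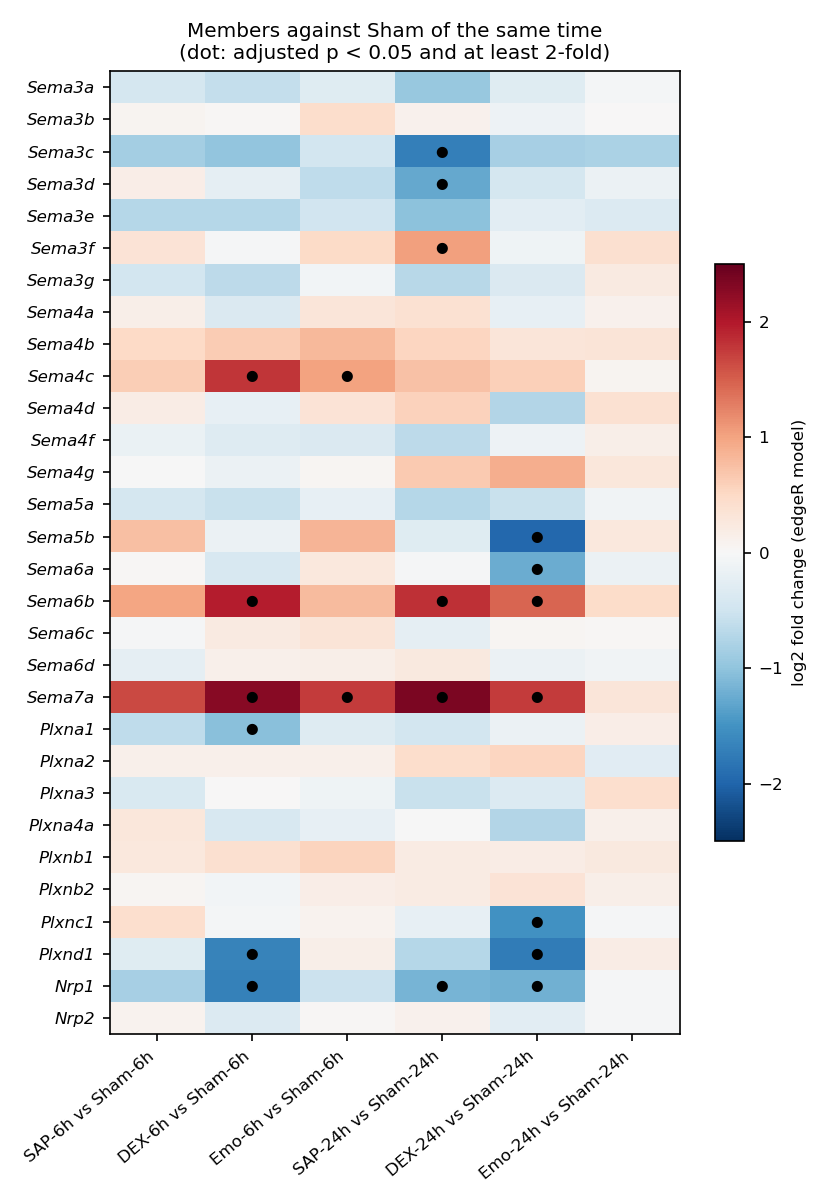
Log2 fold change of the 30 tested members (vertical) in SAP, DEX and Emo against Sham of the same time (horizontal), coloured from blue (lower) to red (higher), with a dot where adjusted p was under 0.05 and the change at least 2-fold. Sema7a carries a dot in 4 of the 6 columns, and Emo-24h vs Sham-24h carries 0 dots.

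Among the ligands that rose, Sema7a, a lipid-anchored semaphorin that binds Plxnc1 and beta-1 integrin, was at 18.4, 44.4 and 32.8 FPKM in Sham-24h and at 219, 121 and 103 FPKM in SAP-24h. Every SAP-24h rat lay above every Sham-24h rat, and the log2 fold change was 2.35 (SE 0.43, edgeR adjusted p = 0.00203). Sema6b, a transmembrane semaphorin, was at 2.12, 2.91 and 3.40 FPKM in Sham-24h and at 12.4, 7.90 and 6.65 FPKM in SAP-24h. Its groups did not overlap either, with a log2 fold change of 1.82 (SE 0.31, edgeR adjusted p = 0.00143). Sema3f, a secreted ligand that uses Nrp2, was at 15.5, 13.6 and 18.1 FPKM in Sham-24h and at 39.8, 23.0 and 24.0 FPKM in SAP-24h. It rose by a log2 fold change of 1.03 (SE 0.21, edgeR adjusted p = 0.00352), close to the 2-fold limit. In each of these 3 genes the highest rat was SAP-24h replicate 1.

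Sema3c, a secreted ligand known for its part in heart outflow and vessel development, was at 42.0, 44.4 and 33.1 FPKM in Sham-24h and at 7.84, 10.2 and 15.5 FPKM in SAP-24h. It fell furthest of the members called, by 1.72 on the log2 scale (SE 0.24, edgeR adjusted p = 0.000405), and its groups were well apart. Against Con-24h (20.2, 22.8 and 23.7 FPKM) the log2 fold change was -0.88 (edgeR adjusted p = 0.0109), and Sema3c differed between Sham-24h and Con-24h themselves (log2 fold change 0.84, adjusted p = 0.0280). The co-receptor Nrp1 was at 41.7, 29 and 30.4 FPKM in Sham-24h and at 9, 16.9 and 15.9 FPKM in SAP-24h. No rat of one group reached the range of the other, and Nrp1 fell by 1.16 on the log2 scale (SE 0.25, edgeR adjusted p = 0.00534). Sema3d, another secreted ligand, was low throughout, with 0.390, 0.400 and 0.390 FPKM in Sham-24h and 0.0800, 0.200 and 0.170 FPKM in SAP-24h. It fell by 1.27 on the log2 scale (SE 0.33, edgeR adjusted p = 0.0155).

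These calls depended in part on SAP-24h replicate 1. Without that library 3 members were called, and the log2 fold changes were -0.93 for Nrp1 (adjusted p = 0.0400), -0.97 for Sema3d (adjusted p = 0.0875) and 0.69 for Sema3f (adjusted p = 0.0278). Sema3f also dropped under the 2-fold limit without Sham-24h replicate 1 (1.00) or replicate 2 (0.95), and when the 6 libraries were fitted alone 0 members were called. The share of all genes called in these fits was not set beside them. With Con-24h as the reference, an alternative added after seeing the data, 6 members were again called, against 6.91% of all genes. Of these, Sema7a (1.94) and Sema6b (1.71) were shared with the Sham comparison, and Sema3g (-1.28), Sema4f (-1.18), Plxnd1 (-1.31) and Sema4d (1.12) were not.

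**Figure D2:**
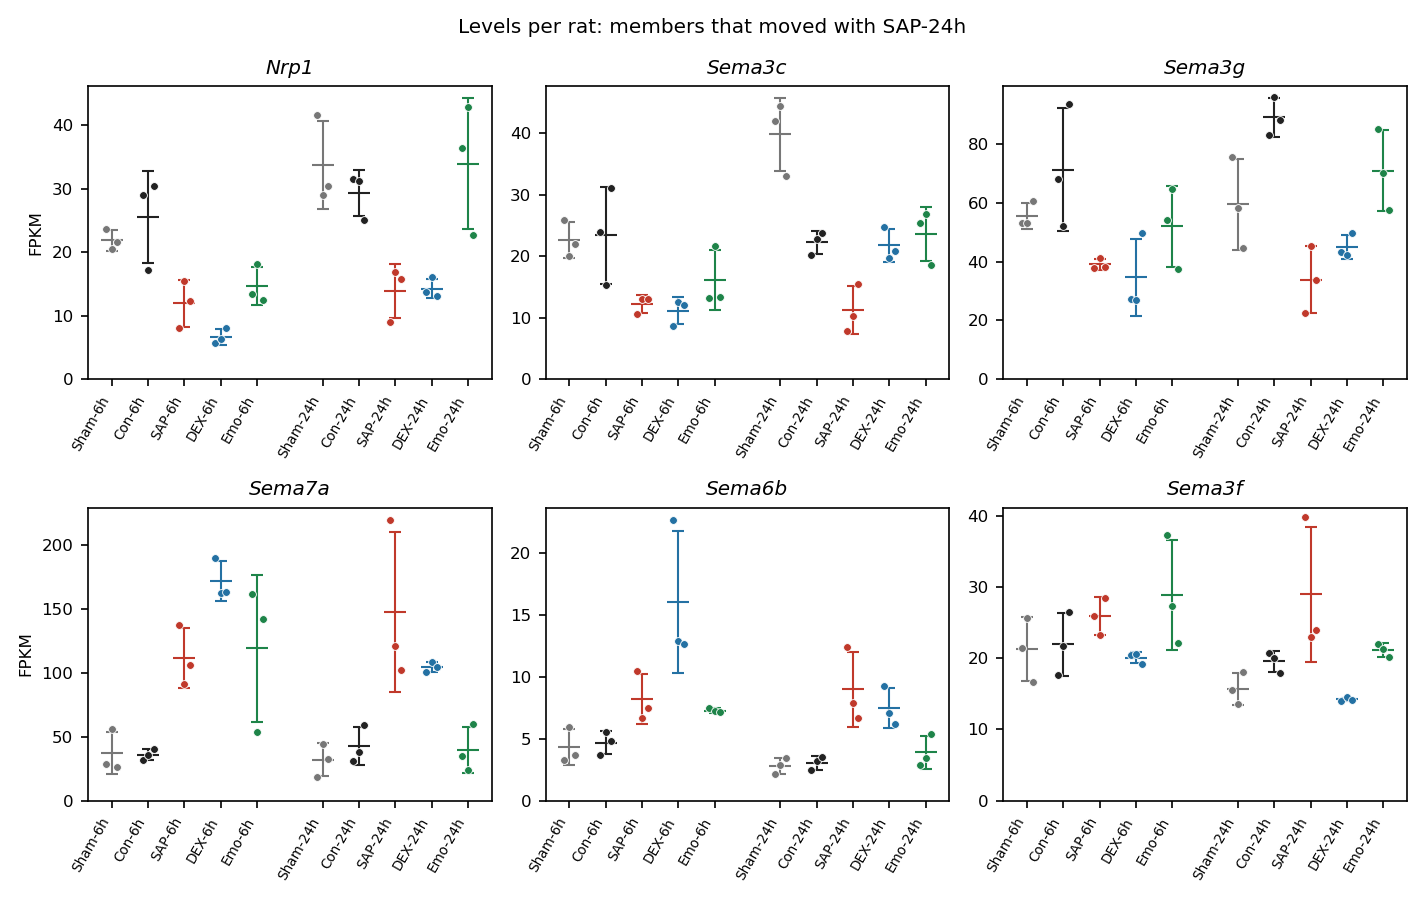
FPKM of 6 members (vertical, linear from 0) in every rat of the 10 groups (horizontal), with points for rats and bars for the mean ± SD (n = 3). The SAP-24h rats lie below the Sham-24h rats for Nrp1 and Sema3c and above them for Sema7a, Sema6b and Sema3f, and SAP-24h replicate 1 lies farthest from Sham-24h within its group in each of the 6 panels.

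Under the adjusted p alone, without the 2-fold limit, 10 members differed between SAP-24h and Sham-24h (12.4% of all genes did), adding Sema4b (0.53) and Sema4c (0.73) on the higher side and Sema5a (-0.72) and Sema3a (-0.94) on the lower side. No plexin was called by edgeR or DESeq2, and 4 had an unadjusted p under 0.05 by edgeR: Plxnd1 (log2 fold change -0.72, adjusted p = 0.115), Plxna2 (0.44, adjusted p = 0.129), Plxna1 (-0.46, adjusted p = 0.157) and Plxna3 (-0.55, adjusted p = 0.161). Plxnd1 was at 17.7, 8.41 and 9.58 FPKM in Sham-24h and at 4.30, 7.88 and 7.66 FPKM in SAP-24h. Plxna1, a receptor used with neuropilins, was at 9.38, 7.49 and 9.73 FPKM in Sham-24h and at 5.09, 6.45 and 6.14 FPKM in SAP-24h. Plxna2, a receptor of class 6 semaphorins, was at 7.71, 9.49 and 7.67 FPKM in Sham-24h and at 11.9, 9.90 and 8.87 FPKM in SAP-24h. The groups overlapped for Plxna2 and not for Plxna1 or Plxnd1. Nrp2 stayed between 10.0 and 14.1 FPKM in the 6 rats, with a log2 fold change of 0.12 (SE 0.15, edgeR adjusted p = 0.665).

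Among genes that work with the members, chosen by role, 1 of 14 receptor partners was higher and 1 lower in SAP-24h, 0 of 5 VEGF ligands were higher and 1 lower, and 1 of 29 intracellular effectors was higher and 3 lower. The median log2 fold changes of these lists were -0.034, -0.42 and 0.0041, against -0.03 over all genes. Flt1, a decoy-like VEGF receptor, rose from a mean of 22.9 to 54.0 FPKM (log2 fold change 1.39, edgeR adjusted p = 0.00943), and Cntn2, a neural adhesion molecule, fell from 2.14 to 0.377 FPKM (-2.36, adjusted p = 0.00159). The gene listed as Figf, which encodes VEGF-D, fell from 4.69 to 1.37 FPKM (-1.63, adjusted p = 0.0415). Rnd1, a small GTPase that binds plexins, rose from 4.42 to 9.94 FPKM (1.32, adjusted p = 0.0153). The collapsin response mediators Crmp1 (-1.33), Dpysl3 (-1.11) and Dpysl5 (-1.63), which relay semaphorin signals to the cytoskeleton, fell with edgeR adjusted p between 0.0185 and 0.0311. Of the same family, Dpysl2 (0.13, adjusted p = 0.652), whose mean was 42.8 FPKM in Sham-24h, and Dpysl4 (adjusted p = 0.596, mean 0.0667 FPKM in Sham-24h) did not pass. Crmp1 and Dpysl5 were low throughout, with means of 0.297 and 0.193 FPKM in Sham-24h.

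Cell type markers were read beside these changes. The summed level of 8 endothelial markers, whose list matters for Nrp1, Sema3g and Plxnd1, was 1197 to 1455 FPKM in Sham-24h and 1200 to 1419 FPKM in SAP-24h, and 1 of 8, Emcn, fell (log2 fold change -1.19, edgeR adjusted p = 0.00319). In Con-24h the endothelial sum was 1620 to 1881 FPKM, above every SAP-24h rat, and against Con-24h the median log2 fold change of the 8 markers was -0.39, with 1 of 8 above 0 and 0 called. Neutrophil markers (5 genes) summed to 193 to 9232 FPKM in Sham-24h and 4423 to 16278 FPKM in SAP-24h, with 0 of 5 called, and T cell markers (5 genes) fell in 4 of 5, from 40.8 to 58.9 FPKM to 11.7 to 15.7 FPKM. Of 6 fibroblast markers 2 fell, of 6 alveolar type 1 markers 1 fell and of 5 macrophage markers 1 rose, with median log2 fold changes of -0.58, -0.71 and 0.28. Smooth muscle and pericyte markers (5 genes) had sums of 198 to 310 FPKM in Sham-24h and 126 to 180 FPKM in SAP-24h, with 0 called, 0 of 5 above 0 and a median of -0.51. Ciliated cell sums did not overlap either (562 to 679 and 270 to 533 FPKM), with 0 called. Against Con-24h, 5 of 5 neutrophil markers rose and 5 of 5 T cell markers fell. No defining marker of the neutrophil, T cell and endothelial lists had a group mean under 0.1 FPKM. Of the 5 macrophage markers, Marco was near the floor, with a mean of 0.0997 FPKM over the 30 libraries. The part of these cell types in the members' changes was not tested.

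DEX-6h against SAP-6h asks for the effect of dexamethasone soon after its first dose. Of 30 members, 2 were called, against 0.515% of all genes. Sema4c, a transmembrane semaphorin that signals through Plxnb2, was at 8.97, 5.73 and 6.92 FPKM in SAP-6h and at 19.2, 14.1 and 15.9 FPKM in DEX-6h. It rose by a log2 fold change of 1.18 (SE 0.24, edgeR adjusted p = 0.0204), and DEX-6h was its highest group of the 10. Plxnd1 was at 9.12, 9.53 and 9.56 FPKM in SAP-6h and at 3.12, 3.83 and 4.04 FPKM in DEX-6h. It fell by 1.37 on the log2 scale (SE 0.31, edgeR adjusted p = 0.0299), with no overlap of the groups. Leaving out any 1 of the 6 libraries lost the Plxnd1 call (log2 fold change -1.27 to -1.41, adjusted p from 0.0550 to 0.166), and leaving out SAP-6h replicate 2 or 3 or DEX-6h replicate 1 or 3 lost that of Sema4c (1.02 to 1.23, adjusted p from 0.0503 to 0.161). No cell type marker was called in this comparison. Sums of the 5 macrophage markers did not overlap (89.4 to 147 FPKM in DEX-6h and 167 to 210 FPKM in SAP-6h, median log2 fold change -0.70), and neither did those of 3 red blood cell markers (137 to 1792 and 1840 to 2360 FPKM, median -1.18). Their part was not tested.

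Against Sham-6h, 6 members were called in DEX-6h (3.97% of all genes). Sema4c (1.78), Sema6b (1.95) and Sema7a (2.27) were up-regulated, and Nrp1 (-1.68), Plxnd1 (-1.66) and Plxna1 (-1.04) were down-regulated, all with edgeR adjusted p of 0.00432 or less. Nrp1 reached its lowest group mean here, at 5.69, 6.26 and 8.02 FPKM, and Sema7a its highest, at 190, 162 and 163 FPKM. Without a drug, Sema7a was already at 137, 90.9 and 106 FPKM in SAP-6h, and it was not called in DEX-6h against SAP-6h. Sema6b was at 22.6, 12.9 and 12.6 FPKM, of which replicate 1 was the highest of the 30 libraries. Plxna1 was at 3.76, 3.73 and 4.92 FPKM, and fell under the 2-fold limit without Sham-6h replicate 3 (-0.85) or without DEX-6h replicate 1 or 2 (-0.99 each). Nrp1, Sema4c, Sema6b, Sema7a and Plxnd1 kept their calls whichever 1 of the 6 libraries was left out. Kdr fell too (-1.45, adjusted p = 0.000539), and Limk1, a kinase that acts on cofilin and actin, rose (1.65, adjusted p = 3.54e-05). Of the cell type markers, 1 of 6 for alveolar type 1 cells, 1 of 5 for macrophages and 1 of 5 for T cells fell, and 1 of 4 for ciliated cells rose. The endothelial sum was higher in every DEX-6h rat (1781 to 1969 FPKM against 1665 to 1752 FPKM in Sham-6h) and none of its 8 markers was called. The 8 markers were split, with 4 above 0 and a median log2 fold change of -0.086. Of these, Cldn5 (0.66) and Eng (-0.82) differed by the edgeR adjusted p (0.0274 and 0.0493). The part of these cell types was not tested.

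At 24 hours, 5 members were called in DEX-24h compared with SAP-24h (3.73% of all genes), and all 5 were lower with DEX (2.55% of all genes were called lower). The SAP-24h libraries are shared with the comparison against Sham-24h above. Sema6a, a transmembrane ligand of Plxna2 and Plxna4, was at 6.72, 8.59 and 8.78 FPKM in SAP-24h and at 3.39, 3.91 and 3.68 FPKM in DEX-24h. It fell by 1.22 on the log2 scale (SE 0.21, edgeR adjusted p = 0.00109), and the DEX-24h rats were the lowest of all groups. Plxnc1, the plexin that binds Sema7a, was at 0.780, 1.06 and 1.30 FPKM in SAP-24h and at 0.440, 0.340 and 0.570 FPKM in DEX-24h. It fell by 1.30 on the log2 scale (SE 0.28, edgeR adjusted p = 0.00682). The calls of Sema6a and Plxnc1 were kept whichever 1 library was left out. With the 6 libraries fitted alone, Sema6a was the 1 member called, and limma on log2(FPKM + 1) called 0.

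Sema3f was at 13.98, 14.49 and 14.13 FPKM in DEX-24h, below each SAP-24h rat, and fell by 1.13 on the log2 scale (SE 0.21, edgeR adjusted p = 0.00206). Without SAP-24h replicate 1 the value was -0.77. Plxnd1, at 3.37, 3.59 and 3.24 FPKM in DEX-24h, fell by 1.03 on the log2 scale (SE 0.30, edgeR adjusted p = 0.0377). This call was kept only without SAP-24h replicate 1, and without any other library the log2 fold change was -0.90 to -1.09 with adjusted p from 0.0853 to 0.112. Sema4d, a semaphorin of T cells and platelets that binds Plxnb1 and Cd72, was at 2.25, 4.60 and 3.57 FPKM in SAP-24h and at 1.98, 1.00 and 1.45 FPKM in DEX-24h. It fell by 1.31 on the log2 scale (SE 0.36, edgeR adjusted p = 0.0285), a call lost without replicate 2 or 3 of SAP-24h or of DEX-24h (-1.07 to -1.32, adjusted p from 0.0551 to 0.128). Under the adjusted p alone, Sema3c was higher (0.88, adjusted p = 0.0241) and Sema4a, a semaphorin that acts on T cells, was lower (-0.60, adjusted p = 0.0290).

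Compared with Sham-24h, 7 members were called in DEX-24h (4.15% of all genes). Sema6b (1.45) and Sema7a (1.74) were higher, and Plxnd1 (-1.75), Plxnc1 (-1.51), Sema6a (-1.24), Nrp1 (-1.19) and Sema5b (-1.96) were lower, with edgeR adjusted p from 0.000795 to 0.0308. Sema7a stood at 101, 108 and 105 FPKM and Nrp1 at 13.7, 16.04 and 13.1 FPKM in DEX-24h, and neither differed from SAP-24h by the test. Sema5b, a low-level ligand with thrombospondin repeats, was at 0.580, 0.140 and 0.310 FPKM in Sham-24h and at 0.0600, 0.0800 and 0.120 FPKM in DEX-24h. Its call was lost in every fit without 1 library except that without Sham-24h replicate 2 (-1.37 to -2.20, adjusted p from 0.0521 to 0.236). Without Sham-24h replicate 1, Sema6b (1.26, adjusted p = 0.0510) and Sema7a (1.45, adjusted p = 0.0897) missed the threshold too.

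**Figure D3:**
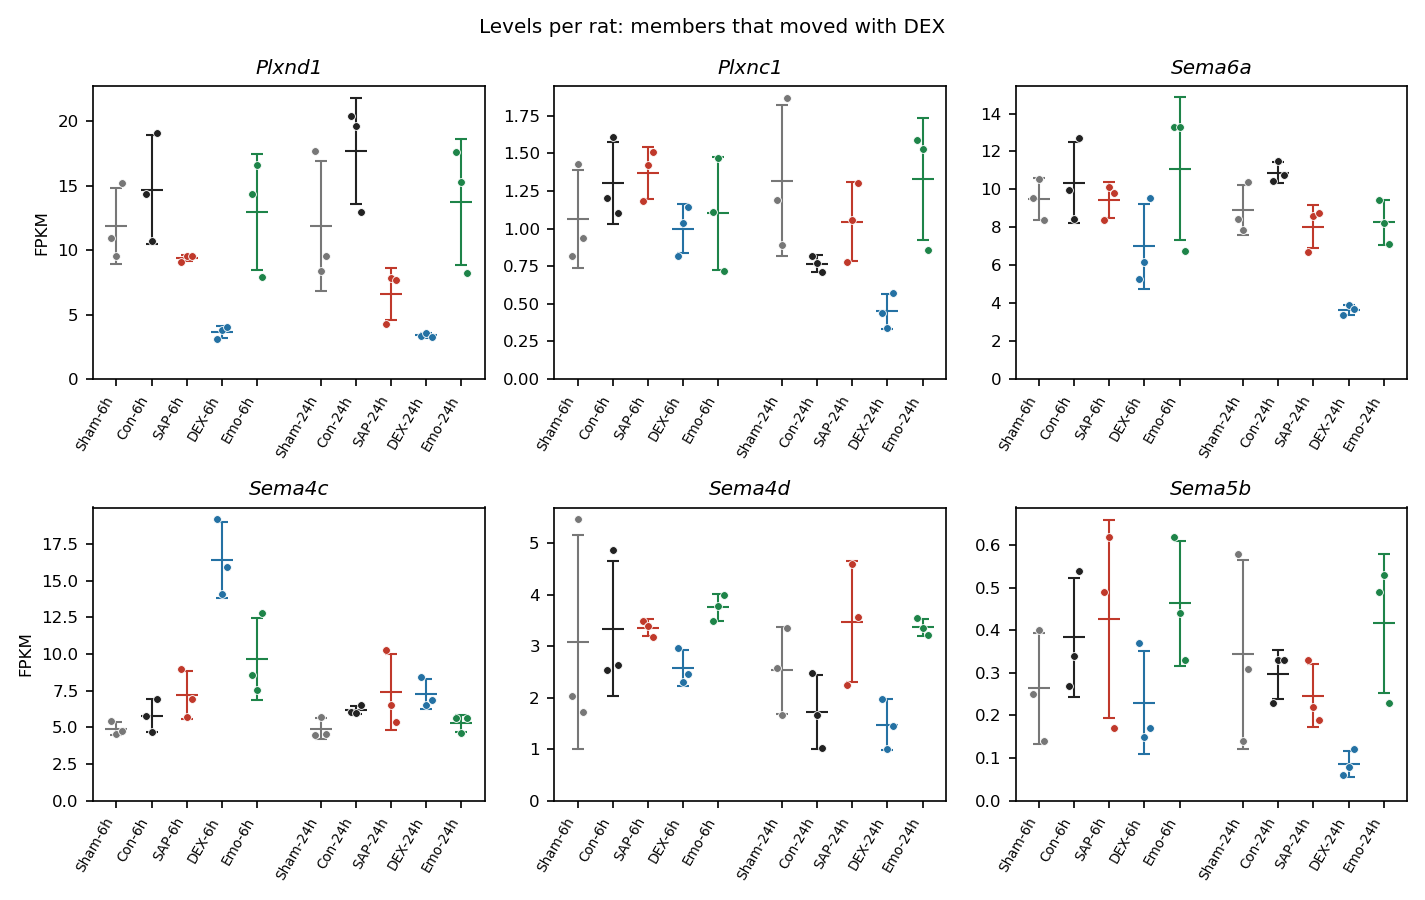
FPKM of 6 members (vertical, linear from 0) in every rat of the 10 groups (horizontal), with points for rats and bars for the mean ± SD (n = 3). The DEX-24h rats are the lowest for Sema6a, at 3.39 to 3.91 FPKM, Plxnd1 is low in DEX-6h and DEX-24h, and Sema4c is highest in DEX-6h, at 14.1 to 19.2 FPKM.

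Lymphocyte markers were also called in DEX-24h, while neutrophil markers were lower than in SAP-24h without a call. Of 4 B cell markers, 3 were lower in DEX-24h than in SAP-24h, with sums of 5.42 to 11.8 and 20.0 to 35.0 FPKM, and 5 of 5 T cell markers were lower in DEX-24h than in Sham-24h, at 5.81 to 12.7 FPKM. Cd72, a B cell receptor of Sema4d, fell in DEX-24h against Sham-24h (log2 fold change -1.75, edgeR adjusted p = 0.0262). The 5 neutrophil markers had a median log2 fold change of -2.44 in DEX-24h against SAP-24h, with 0 called, and their sums did not overlap (1010 to 2965 and 4423 to 16278 FPKM). Of 6 fibroblast markers 1 fell and of 4 ciliated cell markers 1 rose against SAP-24h. Against Sham-24h, 3 of 4 B cell and 1 of 6 fibroblast markers fell, and 1 of 5 macrophage and 1 of 6 alveolar type 2 markers rose, while sums did not overlap for fibroblast (200 to 236 and 262 to 318 FPKM) and ciliated cell markers (461 to 552 and 562 to 679 FPKM). The ciliated cell markers were split, with 2 of 4 above 0, a median log2 fold change of 0.0034 and 0 called. Of the fibroblast markers, 1 of 6 was above 0 (median -0.82). The endothelial sum was 1549 to 1674 FPKM in DEX-24h, above every SAP-24h and Sham-24h rat and overlapping Con-24h. Of its 8 markers, 5 were above 0 against SAP-24h (median 0.15) and 4 against Sham-24h (median 0.05). How far these cells account for Sema4d, Plxnc1 or Sema6a was not tested.

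The effect of emodin was examined in the same way. In Emo-6h against SAP-6h 0 of 30 members were called (0.0251% of all genes), with 1 member at an unadjusted p under 0.05 and 0 called by DESeq2 or by limma on log2 FPKM. At this time Sema7a ran from 53.5 to 162 FPKM in the Emo-6h rats, with replicate 2 far below the others. In the SAP-6h rats it ran from 90.9 to 137 FPKM. Compared with Sham-6h, 2 members were called (0.477% of all genes), Sema4c (1.01, SE 0.24) and Sema7a (1.74, SE 0.42), both with an edgeR adjusted p of 0.0265. Sema4c was at 5.42, 4.55 and 4.75 FPKM in Sham-6h and at 8.59, 7.53 and 12.8 FPKM in Emo-6h. Sema4c lost its call without Sham-6h replicate 1 or 2 or Emo-6h replicate 1 or 3 (0.74 to 1.09, adjusted p from 0.0819 to 0.119), and Sema7a without replicate 1 or 3 of either group (1.45 to 1.60, adjusted p from 0.0515 to 0.135). No cell type marker was called in Emo-6h against Sham-6h, and endothelial sums were higher in every Emo-6h rat (1780 to 2393 against 1665 to 1752 FPKM).

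In Emo-24h compared with SAP-24h, 4 members were called (3.19% of all genes), each one of the 6 that had been called in SAP-24h against Sham-24h. Since both comparisons use the SAP-24h libraries, they are given side by side and the overlap is not read as a result. Sema7a was at 34.7, 24.3 and 59.9 FPKM in Emo-24h, below every SAP-24h rat, with a log2 fold change of -2.06 (SE 0.42, edgeR adjusted p = 0.00661) beside 2.35 for SAP-24h against Sham-24h. Nrp1 was at 36.4, 42.9 and 22.7 FPKM in Emo-24h, above every SAP-24h rat, with 1.14 (SE 0.25, edgeR adjusted p = 0.00926) beside -1.16. In both genes Emo-24h replicate 3 lay nearest to the SAP-24h range.

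Sema6b was at 2.85, 3.46 and 5.36 FPKM in Emo-24h, with -1.37 (SE 0.31, edgeR adjusted p = 0.0110) beside 1.82. Sema3d was at 0.310, 0.550 and 0.230 FPKM, with 1.12 (SE 0.33, edgeR adjusted p = 0.0377) beside -1.27. Sema3c, at 25.3, 26.9 and 18.6 FPKM in Emo-24h, was under the 2-fold limit (0.93, adjusted p = 0.0201). Under the adjusted p alone 10 members differed, against 8.59% of all genes, and these included Sema3g (0.92), Plxna3 (0.97), Sema4f (0.81), Sema5a (0.63) and Plxna2 (-0.73).

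The 4 calls moved with single libraries. Without Emo-24h replicate 2 none was left, with Sema7a at -1.82 (adjusted p = 0.0504), Nrp1 at 0.92 (0.0659), Sema6b at -1.30 (0.0622) and Sema3d at 0.69 (0.254). Without SAP-24h replicate 1 there were 2 calls, and Nrp1 (0.91, adjusted p = 0.0510), Sema6b (-1.03, 0.0609) and Sema3d (0.83, 0.152) were not among them. Without Emo-24h replicate 1 Sema6b (-1.19, adjusted p = 0.0618) and Sema3d (1.22, 0.0638) were lost, and without SAP-24h replicate 3 Sema3d (1.22, 0.0566). Without Emo-24h replicate 3 there were 8 calls, without SAP-24h replicate 2 there were 6, and with the 6 libraries fitted alone there were 0. The share of all genes called in these fits was not set beside them, so whether it moved with the members cannot be told.

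Against Sham-24h, Emo-24h had 0 members called, and 0 of all 15934 genes were. Of the members, 1 had an unadjusted p under 0.05, DESeq2 called 0, and the log2 fold changes ran from -0.79 to 0.45. Groups did not overlap for 2 of 30 members, against 8.62% of all genes. This does not show that the groups were equal. Of the 7 partner genes called in SAP-24h against Sham-24h, 3 were called in Emo-24h against SAP-24h by the edgeR test: Cntn2 (1.98, adjusted p = 0.00661), Crmp1 (1.28, adjusted p = 0.0462) and Rnd1 (-1.37, adjusted p = 0.0181). The other 4 were not, namely Flt1 (-0.98, adjusted p = 0.0617), Figf (1.05, adjusted p = 0.195), Dpysl3 (0.98, adjusted p = 0.0431, under 2-fold) and Dpysl5 (1.14, adjusted p = 0.124). Both comparisons share the SAP-24h libraries, so their directions are not read as a result. Of 6 fibroblast markers, 1 rose and 1 fell in Emo-24h against SAP-24h. T cell markers were higher in 2 of 5, with sums of 15.1 to 57.7 FPKM in Emo-24h against 11.7 to 15.7 FPKM in SAP-24h. Sums of B cell markers (36.8 to 64.9 against 20.0 to 35.0 FPKM) and of smooth muscle and pericyte markers (214 to 315 against 126 to 180 FPKM) did not overlap, with 0 called in either list and 2 of the 5 smooth muscle and pericyte markers higher by the adjusted p alone. The part of these cells in the members' changes was not tested.

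The drugs were compared directly at 24 hours, and 6 members were called (5.06% of all genes). Plxnd1 was at 3.37, 3.59 and 3.24 FPKM in DEX-24h and at 17.7, 15.3 and 8.23 FPKM in Emo-24h, with a log2 fold change of 1.93 (SE 0.31, edgeR adjusted p = 0.000565). Plxnc1 was at 1.59, 1.53 and 0.860 FPKM in Emo-24h, all above the DEX-24h rats, with 1.49 (SE 0.28, edgeR adjusted p = 0.00201). Both receptors kept their calls whichever 1 library was left out. Sema6a was at 9.46, 8.25 and 7.10 FPKM in Emo-24h (1.10, SE 0.21, adjusted p = 0.00177), and was just under 2-fold without Emo-24h replicate 1 (0.99). Nrp1 was higher in Emo-24h by 1.17 (SE 0.25, edgeR adjusted p = 0.00478), and 0.93 without Emo-24h replicate 2.

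Sema5b was at 0.490, 0.530 and 0.230 FPKM in Emo-24h (2.22 against DEX-24h, edgeR adjusted p = 0.0129), and Sema7a was the 1 member called lower with emodin by edgeR (-1.45, adjusted p = 0.0300), against 1.24% of all genes. DESeq2 also called Sema6b lower (-1.02, adjusted p = 0.0150) and Sema4d higher (1.10, adjusted p = 0.0246) in Emo-24h than in DEX-24h. Sema5b lost its call without replicate 1 or 2 of either group (1.96 to 2.20, adjusted p from 0.0510 to 0.0671). Sema7a kept its call only without Emo-24h replicate 3 (-1.23 to -1.49 in the other fits, adjusted p from 0.0551 to 0.143). All 5 T cell, all 4 B cell and 1 of 6 fibroblast markers were higher in Emo-24h than in DEX-24h, as was Cd72 (2.16, adjusted p = 0.00623), and 1 of 6 alveolar type 2 markers was lower. Endothelial sums were lower in every Emo-24h rat (1251 to 1500 FPKM against 1549 to 1674 FPKM in DEX-24h), with 0 of 8 markers called and Cldn5 (-0.69) past the edgeR adjusted p alone (0.0211). The 8 endothelial markers were split, with 4 above 0 and a median log2 fold change of -0.08. Fibroblast sums were higher in every Emo-24h rat (267 to 400 against 200 to 236 FPKM), with 6 of 6 markers above 0. Smooth muscle and pericyte sums were barely apart (214.28 to 315 against 173 to 214.27 FPKM), with 5 of 5 above 0 and 0 called. Neutrophil sums were higher in every Emo-24h rat (4255 to 6583 FPKM against 1010 to 2965 FPKM) with 0 of 5 called, and the part of these cells was not tested. The Con groups served as a second reference: Sham-24h and Con-24h had 0 members called at 2-fold, against 1.00% of all genes, with 7 at an unadjusted p under 0.05, 0 by DESeq2 and Sema3c under the adjusted p alone (9.85% of all genes).

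With Con as the reference for the remaining groups, also added after seeing the data, SAP-6h had 1 member called, Plxna1 (-1.03, edgeR adjusted p = 0.0454), against 0.163% of all genes. DEX-6h had 7 (3.35% of all genes), the 6 of the Sham comparison and Sema3c (-1.02, adjusted p = 0.00940). DEX-24h had 5 (7.12% of all genes), 2 higher and 3 lower, where the Sham comparison had 7. Among the 5 were Plxnd1 (-2.34), Sema6a (-1.54) and Sema6b (1.33). The mean of Plxnc1 was 0.450 FPKM in DEX-24h and 0.767 FPKM in Con-24h, less than 2-fold apart. Emo-6h had 0 (0.0565% of all genes) and Emo-24h had 0 (1.71% of all genes), with 9 and 3 members at an unadjusted p under 0.05, and Con-24h against Con-6h had 0 (0.00628% of all genes) with 4. These were run with edgeR alone.

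The change from 6 to 24 hours was taken within each treatment. Sham-24h against Sham-6h had 0 members called (0.257% of all genes, 3 members at an unadjusted p under 0.05, 0 by DESeq2) and SAP-24h against SAP-6h had 0 (2.42% of all genes, 6 members at an unadjusted p under 0.05, 0 by DESeq2). DEX-24h against DEX-6h had 4 (7.14% of all genes) and Emo-24h against Emo-6h had 4 (9.41% of all genes). Under the adjusted p alone, 1 member differed in Sham (0.992% of all genes), 1 in SAP (6.01%), 10 in DEX (25.9%) and 9 in Emo (34.1%). Nrp1 rose with time by 1.13 in DEX and by 1.16 in Emo (SE 0.25 each, edgeR adjusted p = 0.00270 and 0.00125). It was also higher in every Sham-24h rat (41.7, 29 and 30.4 FPKM) than in every Sham-6h rat (23.7, 20.5 and 21.6 FPKM), without a call. In SAP and in Con the Nrp1 values of the 2 times overlapped. In DEX, Sema4c (-1.16), Sema6b (-1.09) and Plxnc1 (-1.13) fell. Sema6b missed the call without DEX-6h replicate 1 (-0.74, adjusted p = 0.0953) or DEX-24h replicate 3 (-0.95, 0.0546), and Plxnc1 was just under 2-fold without DEX-24h replicate 2 (-0.99). Cell type markers moved over the same time. In DEX, 5 of 5 T cell markers fell (sums of 28.4 to 42.0 FPKM in DEX-6h and 5.81 to 12.7 FPKM in DEX-24h), as did 4 of 4 B cell, 3 of 6 fibroblast and 1 of 5 smooth muscle and pericyte markers, and 2 of 5 macrophage and 1 of 6 alveolar type 2 markers rose. In Emo, 3 of 3 red blood cell markers fell (sums of 722 to 1464 FPKM in Emo-6h and 78.6 to 438 FPKM in Emo-24h), as did 1 of 8 endothelial, 1 of 4 mesothelial and 2 of 6 fibroblast markers, and 1 marker each of fibroblasts, macrophages, alveolar type 2 cells and ciliated cells rose. Endothelial sums were lower at 24 hours without overlap in DEX (1781 to 1969 and 1549 to 1674 FPKM) and in Emo (1780 to 2393 and 1251 to 1500 FPKM). The 8 endothelial markers were split in DEX, with 5 above 0 and a median log2 fold change of 0.19. By the edgeR adjusted p alone, Eng (0.84) and Tek (0.52) rose in DEX, and Cldn5 (-0.69), Tie1 (-0.87) and Vwf (-0.58) fell. In Emo, 2 of the 8 were above 0, with a median of -0.28. Neutrophil sums were higher at 24 hours in Emo (1301 to 3734 and 4255 to 6583 FPKM). Alveolar type 1 sums were lower in Emo-24h than in Emo-6h without overlap (1676 to 2499 and 2593 to 2937 FPKM). The 6 alveolar type 1 markers were split, with 3 above 0, a median log2 fold change of 0.06 and 0 called. Mesothelial sums were also lower in Emo-24h without overlap (23.05 to 32.8 and 47.1 to 72.6 FPKM). The part of these cells in the members' changes with time was not tested.

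In Emo, Sema7a fell by 1.63 on the log2 scale (SE 0.42, edgeR adjusted p = 0.00465), while Sema5a (1.11) and Sema3d (1.09) rose. Sema5a, a ligand of the class with thrombospondin repeats, was at 0.810, 0.940 and 0.750 FPKM in Emo-6h and at 1.93, 2.26 and 1.42 FPKM in Emo-24h. In Sham it was at 0.990, 0.850 and 1.11 FPKM at 6 hours and at 1.95, 1.89 and 1.97 FPKM at 24 hours, with a log2 fold change of 1.00 (SE 0.20, edgeR adjusted p = 0.0305) that fell just short of 2-fold. It was higher at 24 hours by the adjusted p in Sham, SAP (0.72), DEX (0.99) and Emo, but not in Con (0.49, adjusted p = 0.368), where the rats of the 2 times overlapped. Without Emo-24h replicate 2 the Emo changes were 0.95 for Sema5a, 0.95 for Nrp1 and 0.67 for Sema3d, and Sema3d also missed the threshold without Emo-6h replicate 1 (0.92) or 3 (1.00).

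**Figure D4:**
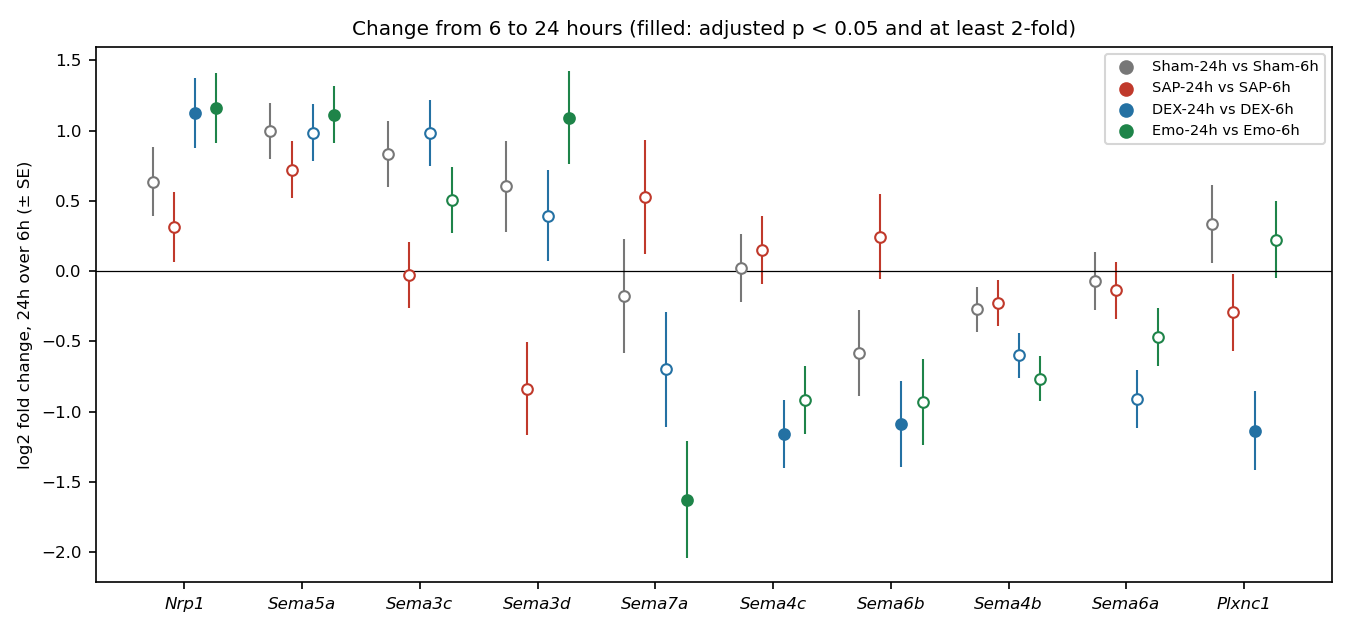
Log2 fold change from 6 to 24 hours with its standard error (vertical) for 10 members (horizontal) in Sham, SAP, DEX and Emo, as points that are filled where adjusted p was under 0.05 and the change at least 2-fold. Nrp1 is filled in DEX and Emo at 1.13 and 1.16, and Sema7a is filled in Emo alone at -1.63.

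Whether an effect itself differed between times was tested by interaction terms. For SAP against Sham and for DEX against SAP, 0 members were called (0.0314% and 0.138% of all genes), with 3 and 12 members at an unadjusted p under 0.05, and DESeq2 called 0 and 1, the latter Sema4c (-1.34, adjusted p = 0.0189). For Emo against SAP, 2 members were called (1.68% of all genes). The emodin effect on Sema7a was lower at 24 than at 6 hours by 2.15 on the log2 scale (log2 -2.15, SE 0.58, edgeR adjusted p = 0.0435), and that on Sema3d was higher by 1.93 (SE 0.47, edgeR adjusted p = 0.0313). With replicate number added to the fit as a block, 1 member was left and Sema7a missed the threshold (-2.16, adjusted p = 0.0522). Sema3d was at 0.250, 0.330 and 0.280 FPKM in SAP-6h and at 0.120, 0.230 and 0.140 FPKM in Emo-6h, the order opposite to that at 24 hours.

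Nrp2 had group means from 9.06 FPKM (DEX-6h) to 12.1 FPKM (SAP-6h) and log2 fold changes from -0.43 to 0.24 in the comparisons between groups. In DEX-6h it was at 7.31, 8.70 and 11.2 FPKM, and in Sham-6h at 12.5, 10.6 and 12.3 FPKM, a difference that did not pass the test (edgeR adjusted p = 0.161). Plxnb2, the most abundant plexin and a receptor of Sema4c, lay between 28.5 and 48.8 FPKM, and Plxnb1, the Sema4d receptor, between 2.17 and 5.77 FPKM over the 30 libraries. Sema3b, a secreted ligand, ran from 15.3 to 38.4 FPKM and Sema6d from 4.70 to 10.8 FPKM without a call. Of the 30 members tested, 14 were called in at least 1 of the 16 comparisons between groups. The share of all genes called in at least 1 of them was not set beside this count, so it is not read as high or low. Sema3g and Sema4f were called only in SAP-24h against Con-24h.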

How the data were processed

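Lung RNA of 30 rats was sequenced as strand-specific poly(A) libraries. The authors trimmed the reads, aligned them with TopHat2 to the rat genome (Ensembl annotation, rat_ensembl_v6, 2 mismatches allowed), kept uniquely mapped reads and deposited raw read counts per gene and FPKM values, which are scaled for gene length and library size. The counting program is not given in the sources used here. The deposited counts were tested with edgeR 4.0.16 (quasi-likelihood, TMM scaling, filterByExpr), with 10 groups in 1 fit, 20 residual degrees of freedom and Benjamini-Hochberg adjustment over 15934 genes. DEGs had an adjusted p under 0.05 and at least 2-fold change. The deposited FPKM served for levels, as mean ± SD of 3 rats; log2 fold changes come from counts. R 4.3.3, limma 3.58.1, DESeq2 1.42.0 and matplotlib 3.10.9 were used.

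Groups were taken from the sample titles, and each numbered sample was taken as 1 rat; the p-values measure the spread between these samples. Per-rat values were given for Nrp1, Nrp2, Sema7a and up to 12 further called members, ordered by the number of comparisons called and then by adjusted p. From the lists of partner genes, at most 4 called genes per list and comparison were eligible. The members and lists were chosen with earlier results of these data known. Tests were checked on simulated counts, and the outcome of that check is not given here. Replicate numbers were not used as pairs. Alternatives were RLE scaling, other filters, DESeq2, limma on log2(FPKM + 1) and log2(FPKM + 0.1), a replicate block, single comparisons, leaving out each library and Con as the reference. Promoter sequences came from RefSeq (GRCr8), matched by symbol; the files give no gene coordinates.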

Additional observations from a re-analysis of the deposited data

Results flagged for a closer look

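The emodin effect on 2 members differed between the times by a direct test of the difference. For Sema3d, Emo against SAP was higher at 24 than at 6 hours by 1.93 on the log2 scale (SE 0.47, edgeR adjusted p = 0.0313), a call that was lost in 5 of 12 fits without 1 library: SAP-6h replicate 2 (1.82, adjusted p = 0.111), Emo-6h replicate 1 (1.76, 0.0837) or 3 (1.83, 0.0742), SAP-24h replicate 1 (1.63, 0.0552) and Emo-24h replicate 2 (1.49, 0.0982). For Sema7a the same difference was -2.15 (SE 0.58, edgeR adjusted p = 0.0435), and the call was lost in 7 of 12 fits: without SAP-6h replicate 2 (-2.01, 0.132) or 3 (-2.11, 0.0689), Emo-6h replicate 1 (-1.86, 0.110) or 3 (-2.0, 0.0931), SAP-24h replicate 1 (-1.71, 0.0867) and Emo-24h replicate 1 (-2.05, 0.0779) or 2 (-1.91, 0.105). A replicate block also lost the Sema7a call (-2.16, adjusted p = 0.0522). Sema3d had 14 to 95 reads per library, and Sema7a 1710 to 20225.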

How the results depend on the processing

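No named change reversed its direction under the alternatives run. With 3 rats a group, 216 fits of named changes without 1 library kept the call and 84 lost it. DESeq2 kept all 48 named changes, limma on log2(FPKM + 1) lost 22 and on log2(FPKM + 0.1) lost 9. Fitting only the libraries compared lost 21 and kept 27, and Con in place of Sham lost 8 and kept 13. RLE scaling and a stricter filter kept all 48, and no filter and a replicate block lost 1 each. The cause of the differences between settings was not tested.

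A stricter filter called 1 member in Sham-24h vs Sham-6h. Replicate numbers were not said to mark shared animals; same-numbered rats deviated together (correlation over 0.1 for every number) only in DEX-24h vs DEX-6h (0.212, 0.221 and 0.230), and a replicate block left 1 member in the Emo against SAP interaction, where Sema7a missed the threshold (adjusted p = 0.0522), and changed no other named call. The adjusted p alone gave 10 members in SAP-24h vs Sham-24h, 10 in Emo-24h vs SAP-24h, 1 each in Sham-24h vs Con-24h, Sham-24h vs Sham-6h and SAP-24h vs SAP-6h, 10 in DEX-24h vs DEX-6h and 9 in Emo-24h vs Emo-6h. DESeq2 called 1 in SAP-6h vs Sham-6h and 1 in the DEX against SAP interaction. On log2(FPKM + 1), limma called 1 in DEX-6h vs SAP-6h, 0 in DEX-24h vs SAP-24h, 3 in Emo-24h vs DEX-24h, 1 in Emo-6h vs Sham-6h, 2 in DEX-24h vs DEX-6h, 2 in Emo-24h vs Emo-6h and 0 in the Emo interaction; on log2(FPKM + 0.1) it called 3 in DEX-24h vs SAP-24h, 1 in Emo-6h vs Sham-6h and 1 in the Emo interaction. Fitting only the libraries compared called 0 in SAP-24h vs Sham-24h, 1 in DEX-6h vs SAP-6h, 1 in DEX-24h vs SAP-24h, 0 in Emo-24h vs SAP-24h, 0 in Emo-6h vs Sham-6h and 0 in the Emo interaction. With Con in place of Sham, chosen after seeing the data, SAP-6h had 1 (Plxna1) and Emo-6h had 0.

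Without 1 library the counts ran from 3 to 8 in SAP-24h vs Sham-24h, 0 to 1 in DEX-6h vs SAP-6h, 3 to 4 in DEX-24h vs SAP-24h, 0 to 8 in Emo-24h vs SAP-24h, 3 to 7 in Emo-24h vs DEX-24h, 5 to 7 in DEX-6h vs Sham-6h, 4 to 7 in DEX-24h vs Sham-24h, 0 to 2 in Emo-6h vs Sham-6h, 4 to 8 in DEX-24h vs DEX-6h, 1 to 6 in Emo-24h vs Emo-6h and 0 to 4 in the Emo interaction. Shares of all genes were not set beside the counts of these fits, nor beside those of DESeq2, limma and the libraries compared alone.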
